A study of Mus musculus with 3 samples.

Results

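DNase I footprints are short stretches of reduced cleavage that can mark DNA shielded by a bound protein, and they are usually looked for within peaks of cleavage. Here the footprints of mouse monocytes that lay outside every called peak are described. They were selected on position: a footprint on chromosomes 1 to 19 was kept when it overlapped no peak of either deposited peak list of any library, and when it overlapped by at least 1 bp a footprint of another library meeting the same condition. This gave 3802, 3220 and 3630 footprints in replicates 1, 2 and 4, or 10652 of the 363487 autosomal footprints of all libraries (2.93%). Of the footprints of each library, 2.70%, 3.05% and 3.10% were kept.

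The series measured chromatin accessibility by DNase-seq in primary monocytes, the circulating phagocytes that give rise to macrophages. All libraries formed 1 group: monocytes of adult female B6CASTF1/J mice aged 2 months and virgin, offspring of a cross between C57BL/6J and CAST/EiJ, with no treatment named. The 3 libraries are labelled biological replicates 1, 2 and 4, have 1 technical replicate each and share 1 donor identifier. Separate animals are not named in the labels, so the errors given here (SD, n = 3 libraries) measure the spread between libraries, which may be technical. Since a footprint was kept only when a second library had it, the libraries also share most loci, and their spread understates the error of independent samples.

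DNase I cuts DNA that is not wrapped in nucleosomes or covered by protein. An accessible promoter is cut over a stretch around its transcription start site (TSS), and a peak caller may report only its tallest section. Promoters of broadly expressed genes are rich in C, G and CpG, and hold sites for factors such as NRF1, the Sp and KLF families (GC box), YY1 and NF-Y (CCAAT box). Monocyte identity is known to depend on PU.1, an ETS factor encoded by Spi1, and on C/EBP, IRF, RUNX and AP-1 factors, many of which also act at enhancers.

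Of the sequences under these footprints, 12 are shown: 9 because they hold a motif discussed here, and the others because they were among the farthest from a peak or the lowest in false discovery rate. Each is the plus strand of mm10, 5′ to 3′, with capitals for the bases spanned by the footprints of all libraries and 15 flanking bases on each side in lower case. The names are those of the protein-coding gene with the nearest TSS.
Kif24, chr4:41464646-41464701: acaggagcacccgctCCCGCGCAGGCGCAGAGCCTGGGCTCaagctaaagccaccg
Ranbp3, chr17:56673140-56673207: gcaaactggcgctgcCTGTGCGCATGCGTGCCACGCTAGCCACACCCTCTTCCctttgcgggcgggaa
Zfp473, chr7:44748742-44748794: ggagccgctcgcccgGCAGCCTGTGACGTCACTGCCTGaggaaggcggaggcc
Kmt2e, chr5:23418290-23418335: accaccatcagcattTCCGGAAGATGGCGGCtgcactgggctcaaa
Carm1, chr9:21546230-21546281: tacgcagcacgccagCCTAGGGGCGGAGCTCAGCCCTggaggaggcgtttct
Dck, chr5:88764860-88764901: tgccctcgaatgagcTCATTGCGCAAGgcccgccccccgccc
Wnt6, chr1:74776037-74776095: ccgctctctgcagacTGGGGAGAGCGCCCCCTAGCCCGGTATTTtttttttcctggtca
Lmna, chr3:88510006-88510056: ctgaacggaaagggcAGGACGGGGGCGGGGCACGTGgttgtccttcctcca
Jun, chr4:95052695-95052737: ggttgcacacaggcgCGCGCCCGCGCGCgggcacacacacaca
Slc35e1, chr8:72492710-72492774: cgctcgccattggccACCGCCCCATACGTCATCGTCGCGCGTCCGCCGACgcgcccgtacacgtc
Cdkn1a, chr17:29095686-29095746: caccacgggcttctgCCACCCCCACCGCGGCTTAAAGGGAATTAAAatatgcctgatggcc
Txndc11, chr16:11144301-11144375: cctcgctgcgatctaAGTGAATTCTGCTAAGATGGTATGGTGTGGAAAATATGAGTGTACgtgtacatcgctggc
The footprints at Kif24 and Ranbp3 span NRF1 motifs, those at Zfp473 a cAMP response element (CRE), at Kmt2e a YY1 motif, at Carm1 and Slc35e1 a GC box, at Dck a C/EBP motif, at Wnt6 a CTCF core and at Lmna a GC box beside an E-box. These are matches of letters, not measured binding.

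Footprints shared by libraries outside peaks were few and lay close to the peaks. Outside all peaks the libraries had 10157, 5542 and 6658 footprints, or 7.21%, 5.25% and 5.69% of their autosomal total. Of these, 37.4%, 58.1% and 54.5% were shared with another library, while 58.0%, 70.4% and 66.9% of the footprints inside peaks were shared. Replicate 1 had the most footprints of all (140947, against 105510 and 117030) and the lowest shared share both outside and inside peaks. Read depth per library is not given in the sources used here.

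Merged over the libraries, the footprints formed 4224 loci with a median length of 14 bp and a longest of 63 bp. All 3 libraries had a footprint at 1659 loci (39.3%), and 2565 loci were held by 2 libraries: 769 by replicates 1 and 2, 1182 by replicates 1 and 4, and 614 by replicates 2 and 4. The footprints of a locus seldom had identical borders, with 18 loci showing 1 footprint of the same start and end in every library. By its midpoint, and with no promoter class, a locus lay in a coding exon in 275 cases and an untranslated region in 1143. It lay in another exon in 188, an intron in 1095 and between genes in 1523. Of the loci, 3542 (83.9%) lay within 1000 bp of a protein-coding TSS, so loci between genes here include promoters. The shares given further below take promoters first. Loci were present on every autosome, from 97 on chromosome 18 to 391 on chromosome 11. As a share of all footprints of the chromosome, those kept were 2.35%, 2.65% and 2.73% on chromosome 18. On chromosome 11 they were 2.88%, 3.25% and 3.11%, so the counts largely follow the number of footprints.

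The gap to the nearest peak of any library is what the rule set above 0, so it is given as a description. Its median was 30, 30 and 29 bp in replicates 1, 2 and 4, and the upper quartile was 73, 73 and 72 bp. Gaps of at most 50 bp were found for 65.5%, 65.1% and 66.1% of the footprints, and gaps of at most 150 bp for 93.1%, 93.0% and 93.2%. Only 8, 5 and 3 footprints lay more than 300 bp from a peak, and the largest gaps were 539, 543 and 317 bp. No footprint outside peaks, shared or not, lay more than 1000 bp away.

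**Figure D1:**
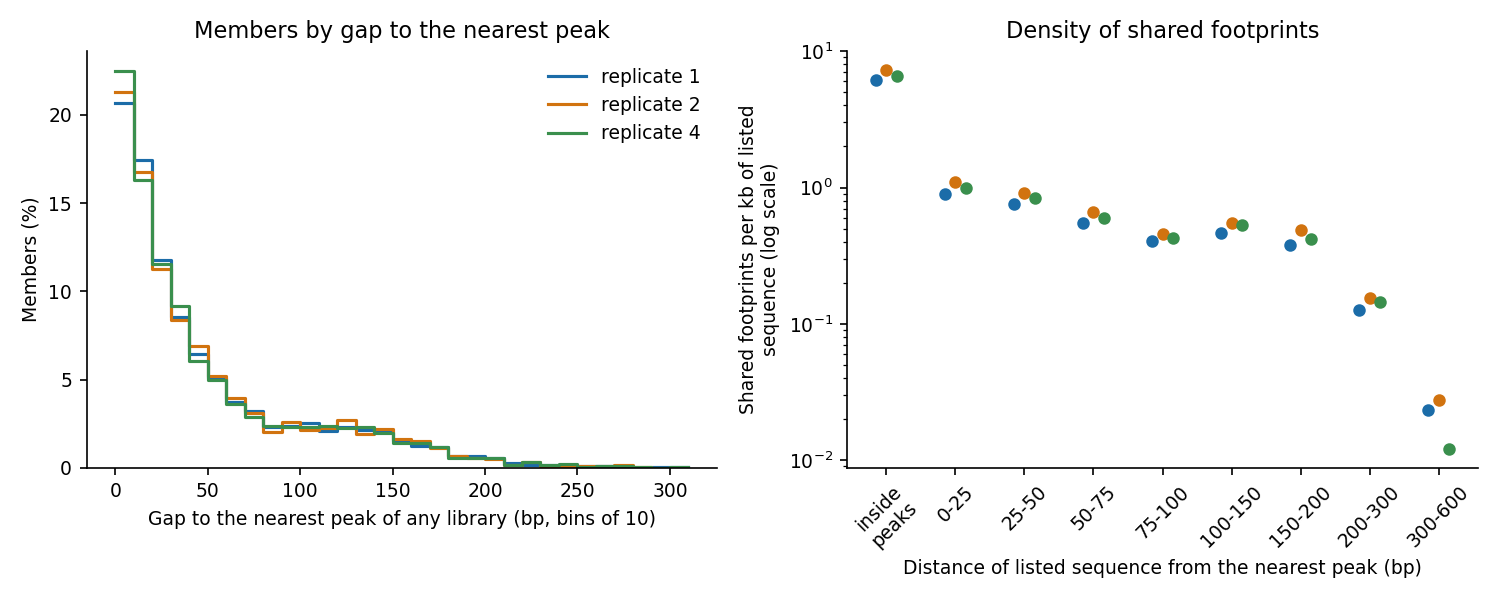
Left, the percentage of shared footprints outside peaks by gap to the nearest peak of any library in bins of 10 bp, with 1 line per library. Right, shared footprints per kb of sequence listed in the FDR file, inside peaks and by distance from the nearest peak, on a log scale with 1 point per library; gaps cluster near 0 in each library, and the density falls from a mean of 6.68 inside peaks to 0.0210 at 300 to 600 bp.

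Footprints were reported almost only where the deposited false discovery rate (FDR) of cleavage was listed, which was wherever it was under 0.05. The listed sequence came to 19.2, 14.3 and 17.0 Mb of the autosomes, of which 35.5%, 32.8% and 34.2% lay outside all peaks. Per kb of listed sequence there were 6.68 ± 0.597 shared footprints inside peaks and 0.622 ± 0.0630 outside. Within the outside sequence the density was 0.993 ± 0.0984 at less than 25 bp from a peak, 0.603 ± 0.0559 at 50 to 75 bp and 0.428 ± 0.0255 at 75 to 100 bp. Shared footprints that reached past a peak border (1462, 1136 and 1360) counted as inside by the rule. The density nearest to a peak can thus be too low. The density was 0.513 ± 0.0413 at 100 to 150 bp and 0.428 ± 0.0549 at 150 to 200 bp. At 100 to 150 bp it was 0.467, 0.546 and 0.527, above the 0.404, 0.455 and 0.426 at 75 to 100 bp in each library. It then fell to 0.142 ± 0.0141 at 200 to 300 bp, and no footprint was called in listed sequence more than 600 bp from a peak.

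The peaks beside these footprints were mostly tall among all peaks of their library. Heights of the peaks that held the shared inside footprints were not ranked. Tall peaks are thus not shown to be particular to the outside footprints. Peak height is a signal of cleavage that the authors deposited with each peak, and its scale is not stated, so it was ranked within a library. The peak of the same library nearest to a footprint lay at a median height percentile of 96.1, 95.2 and 95.8, and was among the tallest 10% for 77.7% ± 2.84 of the footprints. Ordered by height, 0.0663% ± 0.0415 of the lowest decile of peaks were the nearest peak of a shared outside footprint within 300 bp, against 2.20% ± 0.467 of the eighth decile, 9.02% ± 1.35 of the ninth and 36.3% ± 0.665 of the tallest. In total 2498, 2174 and 2384 peaks of the longer lists (4.74%, 5.23% and 4.99%) had such a footprint beside them, and 1 peak had at most 10. For 19.3% ± 0.852 of the footprints there was a peak on both sides within 300 bp.

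**Figure D2:**
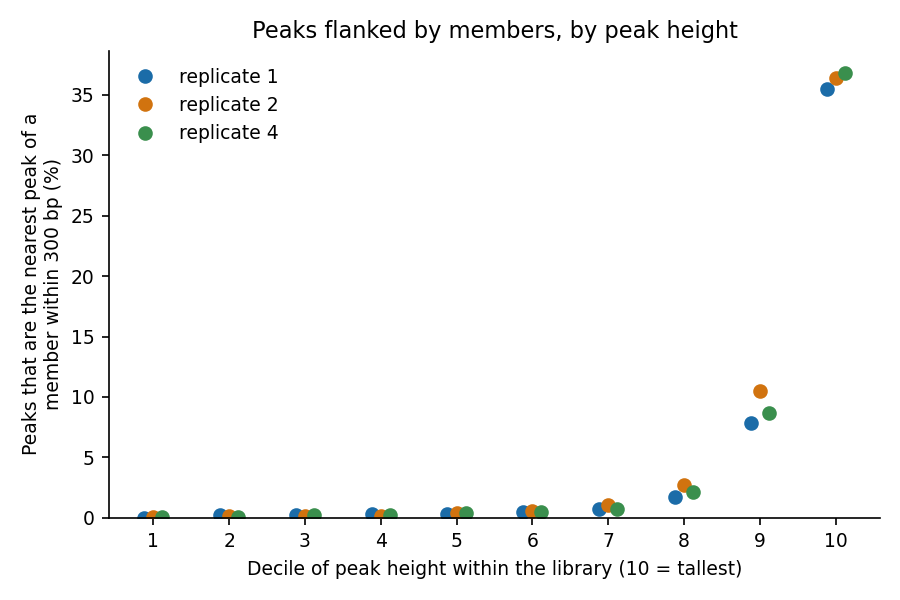
The percentage of peaks of each height decile that were the nearest peak of a shared outside footprint within 300 bp, with 1 point per library. All libraries are under 3% up to the eighth decile and near 36% in the tallest.

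These neighbouring peaks were not wide, with a median of 240, 240 and 220 bp against 200 bp for all peaks of a library. The unbroken block of listed FDR that held the footprint reached a peak of the same library in 99.9% ± 0.0545 of cases. Its median length was 1071, 934 and 1016.5 bp, against 645, 545 and 602 bp for the shared footprints inside peaks. Most footprints outside peaks thus lay in long listed blocks of which the peak covered a part.

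The FDR gives the same position in numbers. Every shared footprint outside peaks overlapped an interval with a listed FDR, and the median of its lowest log10 FDR was -29.7, -24.2 and -36.0 in replicates 1, 2 and 4. The shared footprints inside peaks had medians of -17.5, -14.1 and -20.5, a weaker FDR in each library. The order turned round within 1000 bp of a TSS, with a mean of -32.2 outside and -35.6 inside peaks, and with the shorter peak list alone (-17.3 against -18.3). Footprints outside peaks that were seen in 1 library had medians of -13.3, -12.3 and -19.6, and 24.0%, 20.8% and 19.4% of them had an FDR above 0.001, against 1.37%, 1.34% and 0.964% of the shared ones. Peaks, footprints and FDR were made from the same alignments, so no test was made. Set against the shared footprints inside the very peaks nearest to them, the outside footprints had the weaker FDR, with a mean log10 of -30.0 ± 5.88 against -57.3 ± 11.9.

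Those nearest peaks numbered 2838 of 62046 merged peaks (4.57%). They held 12534, 12272 and 12546 shared footprints, or 15.8, 15.5 and 15.8 per kb of peak. This second comparison was added after the first had been seen.

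The outside footprints were short. The median width was 10, 9 and 10 bp against 12, 11 and 12 bp for shared footprints inside peaks, and the mean was 11.8 ± 0.577 against 14.8 ± 0.713 bp. The shortest width, 7 bp, was that of 24.5%, 29.0% and 25.7% of the outside footprints and of 17.7%, 20.9% and 19.3% of those inside. Against the nearest peaks the gap widened, with a median width of 15.3 ± 1.15 bp inside. The direction was the same in 3 of 3 libraries in both comparisons, and the exact sign-flip test over libraries, two-sided, gave p = 0.25, the smallest that 3 libraries allow. Width is tied to the rule: beside a peak, a longer footprint is more likely to touch it and count as inside. Shared footprints reaching past a peak border had mean widths of 17.4, 15.4 and 16.6 bp. Those at most 10 bp outside had 12.6, 11.2 and 12.3 bp. The test cannot separate a difference in width from this selection. The difference in medians was close to 0 against all footprints inside peaks, shared or not: 10, 9 and 10 bp outside and 10, 10 and 10 bp inside, a mean difference of -0.333 bp (exact sign-flip p = 1.0). No difference in width, base content, genome class or motifs can pass 0.05 in this design.

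GC content was high. It was 69.2%, 69.3% and 68.7% in the outside footprints against 65.4%, 66.0% and 65.5% in the shared footprints inside peaks, and 41.9% over the autosomes. The listed sequence outside peaks from which they were called had a GC content of 56.6%, 58.6% and 56.9%. The difference from footprints inside peaks was 3.42 ± 0.317 percentage points (3 of 3 libraries, exact sign-flip p = 0.25). It was 0.119 points among footprints within 1000 bp of a TSS (71.0% against 70.9%) and -1.19 ± 0.334 points against footprints of the nearest peaks. The higher GC content was not seen in either of these closer comparisons (exact sign-flip p = 1.0 and 0.25). It also turned round, to -1.29 points, when footprints had to avoid the shorter peak list alone.

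Among the outside footprints GC content went with the gap. It was 66.2% ± 0.352 at gaps under 25 bp, 69.8% ± 0.455 at 25 to 49 bp, 71.5% ± 0.586 at 50 to 99 bp and 73.0% ± 0.228 at 100 bp or more. The libraries of neighbouring gap classes did not overlap in GC content. Mean width stayed between 11.4 and 12.2 bp over these classes, and the share within 1000 bp of a TSS was 81.1% ± 0.332 in the first and 86.3% to 86.7% in the others. At the border set by the rule, footprints at most 10 bp outside a peak had a GC content of 65.9%, 65.9% and 65.3%, and shared footprints that reached past the border of a peak had 66.6%, 66.3% and 65.6%. The median log10 FDR at the border was -33.8, -26.9 and -40.1 just outside and -38.2, -30.4 and -46.6 just inside.

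Soft-masked bases, which mark repeats and low-complexity sequence in mm10, made up 11.3%, 11.0% and 11.4% of the outside footprints and 8.07%, 7.62% and 8.05% of those inside peaks. The difference of 3.31 ± 0.0495 points had the same sign in 3 of 3 libraries (exact sign-flip p = 0.25). Unlike GC content it was larger in the closer comparisons: 9.73% against 4.94% within 1000 bp of a TSS, and 11.2% against 4.70% for footprints of the nearest peaks. Over the autosomes 33.5% of bases were soft-masked, and over the listed sequence outside peaks 9.86%, 8.7% and 10.1%.

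Promoters held most of the footprints outside peaks. The midpoint lay within 1000 bp of a protein-coding TSS for 84.3%, 83.9% and 84.1%, against 52.9%, 54.5% and 52.9% of shared footprints inside peaks and 2.13% of the autosomes. The difference was 30.7 ± 1.12 points, in 3 of 3 libraries (exact sign-flip p = 0.25). It fell to 5.32 points, 59.8% against 54.5%, when footprints had to avoid the shorter peak list alone. Of the listed sequence outside peaks, 69.8%, 76.5% and 71.9% was promoter. Introns held 5.98% ± 0.0966 of the outside footprints against 22.1% ± 0.554 inside, intergenic sequence 7.89% ± 0.237 against 20.5% ± 0.316 and exons 2.06% ± 0.199 against 4.05% ± 0.0633. Of the shared footprints in the nearest peaks, 86.5% ± 0.141 were in promoters, above the 84.1% ± 0.223 outside.

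Around the TSS the footprints outside peaks were densest in the first 50 bp downstream and spread more widely than those inside peaks. Among the outside footprints within 1000 bp of a TSS (3205, 2700 and 3052) the median distance was 150, 148 and 148 bp. It was 78, 76 and 76 bp for shared footprints inside peaks. Peaks commonly cover the TSS and the rule removes them, so these positions are a description. The window between 100 and 400 bp upstream held 34.9% ± 0.524 of the outside footprints and 23.0% ± 0.0591 of those inside. The window between 100 and 400 bp downstream held 19.1% ± 0.718 and 8.49% ± 0.142. The first 50 bp downstream of the TSS held 11.0%, 11.2% and 12.1% of the outside footprints, against 5.90%, 5.93% and 6.13% between 50 and 100 bp upstream, where the footprints inside peaks were dense. In all 43.1% ± 0.813 of the outside footprints near a TSS were downstream of it, against 34.0% ± 0.264 of those inside peaks.

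**Figure D3:**
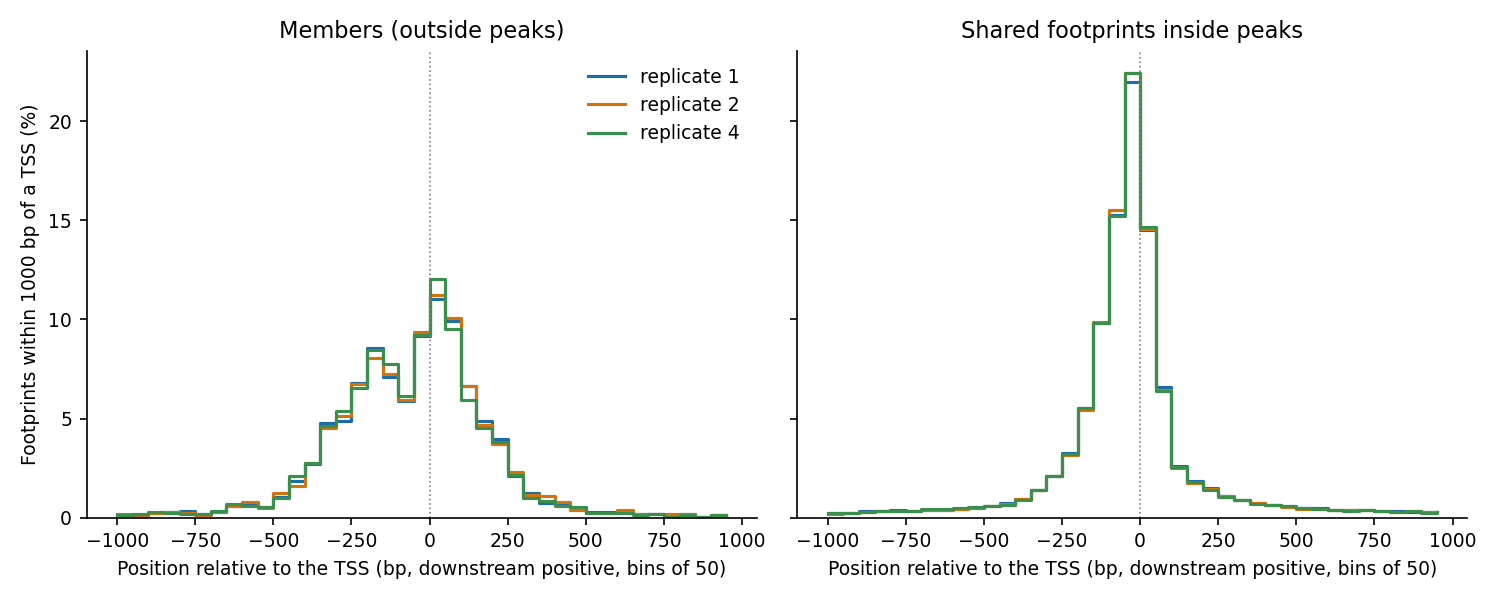
The percentage of footprints within 1000 bp of a protein-coding TSS by position in bins of 50 bp, for shared footprints outside peaks (left) and inside peaks (right), with 1 line per library. The outside footprints show 1 mode just downstream of the TSS and 1 between 150 and 200 bp upstream, while those inside peaks have 1 mode in the 50 bp upstream.

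Motifs were sought in windows of 40 bp centred on each footprint, on both strands. A share is read beside that of all adjoining windows of 40 bp tiled over the listed sequence outside peaks, which does not adjust for base content within that sequence. The tiled windows hold no peak sequence, but the windows centred on footprints were not cut at peak borders. At small gaps they reach into the peak, where some motifs are commoner. NRF1 was in 0.860% of tiled windows inside peaks against 0.329% outside, and the CRE in 0.243% against 0.0512%. The effect on the ratios was not tested. The 12 patterns were the CTCF core (AGGNGGC), ETS (AGGAAG), C/EBP (TTGCNNAA), AP-1 (TGANTCA), GC box (GGGCGG), RUNX (TGTGGT), IRF (GAAANNGAA), CCAAT box (CCAAT), NRF1 (GCGCNTGCG), YY1 (AAGATGGC), CRE (TGACGTCA) and E-box (CACGTG). The CTCF core can share letters with the GC box, and 29.4%, 30.1% and 28.0% of the windows with a CTCF core also held a GC box. At least 1 motif was present at 38.5%, 38.9% and 37.6% of the footprints.

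Motifs of promoter factors were more frequent in the windows at footprints, which can reach into a peak, than in the tiled windows outside peaks. NRF1, a regulator of nuclear genes for mitochondrial function, had its motif at 126, 115 and 115 footprints, or 3.31%, 3.57% and 3.17%. Its share over all windows of the listed sequence outside peaks was 0.329% on average, so the footprints held it 10.3 ± 1.22 times as often, and over the genome 0.0194% of windows held it. The GC box was at 20.5%, 20.5% and 20.4% of the footprints against 7.11% of the windows outside peaks, a ratio of 2.89 ± 0.274. It was at 0.395% of windows genome-wide. The YY1 motif was at 32, 27 and 34 footprints, with a ratio of 3.71 ± 0.273 to 0.236% of windows. The CRE, bound by CREB and ATF factors, was at 12, 12 and 9 footprints, and its ratio of 6.08 ± 1.11 rests on these few. The CTCF core, part of the site of the insulator protein CTCF, had a ratio of 1.48 ± 0.0804 to 4.59% of windows.

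Motifs of the factors known for monocyte identity were not, neither outside nor inside peaks. The ratios were 0.882 ± 0.0624 for ETS, 0.871 ± 0.198 for C/EBP, 0.793 ± 0.0904 for IRF, 0.694 ± 0.0675 for AP-1 and 0.665 ± 0.101 for RUNX, and they were below 1 in every library except C/EBP in replicate 2 (1.10). For shared footprints inside peaks, set against the listed sequence inside peaks, they were 0.805 ± 0.0206, 0.991 ± 0.0543, 0.878 ± 0.0327, 0.785 ± 0.0112 and 0.874 ± 0.0177. As shares of the outside footprints these were 4.14%, 0.918%, 0.637%, 0.439% and 1.23%, against 4.69%, 1.06%, 0.805%, 0.632% and 1.85% of windows. The CCAAT box was at 3.96% of footprints and 3.28% of windows, a ratio of 1.21 ± 0.111. The E-box, bound by MYC and USF factors, was at 0.879% and 0.746%, with ratios from 0.973 to 1.32. A share of windows near or below that of the zone says only that these letters were not more frequent there.

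**Figure D4:**
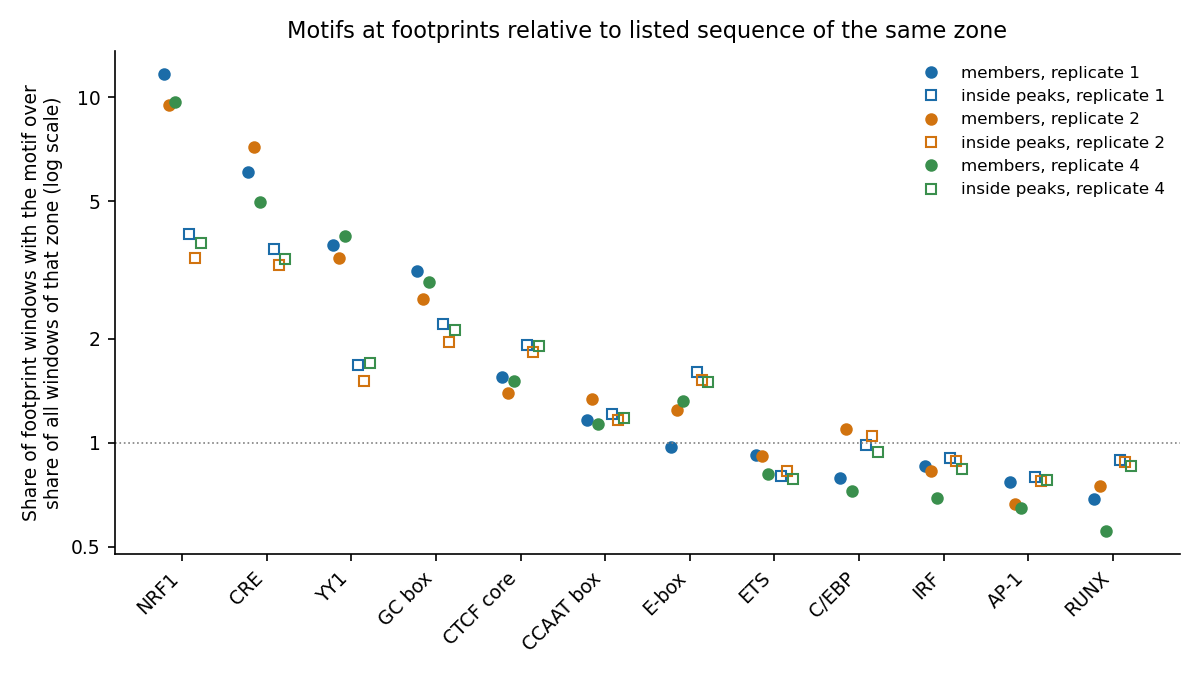
For each motif, the share of footprint windows that hold it divided by the share of all windows of 40 bp in listed sequence of the same zone, on a log scale with 1 point per library; filled circles are shared footprints outside peaks and open squares those inside. NRF1 is near 10 outside and near 4 inside peaks, and ETS, RUNX, AP-1 and IRF are under 1 in each library both outside and inside. Footprint windows were not cut at peak borders.

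Against shared footprints inside peaks the shares moved in both directions. The GC box was at 20.4% ± 0.0455 of outside footprints and 16.6% ± 0.280 of those inside, and YY1 at 0.872% ± 0.0558 and 0.643% ± 0.0164. The CTCF core was at 6.80% ± 0.0986 against 11.2% ± 0.0578, the CRE at 0.312% ± 0.0624 against 0.831% ± 0.0367 and the RUNX motif at 1.23% ± 0.187 against 2.64% ± 0.0562. Each of these differences had 1 sign in 3 of 3 libraries (exact sign-flip p = 0.25). NRF1 differed by 0.160 ± 0.159 points and in 2 of 3 libraries (exact sign-flip p = 0.5), and by -0.0261 points without replicate 2. The CTCF core turned round among the 244 footprints per library more than 150 bp from a peak, with 12.8% against 11.2%. Beside footprints of the nearest peaks the GC box turned round, with 27.1% ± 0.0678 inside, and NRF1 was at 6.41% ± 0.0113 inside. The CCAAT box was at 8.48% ± 0.106 of those and the E-box at 2.19% ± 0.00416, both above their shares outside, while YY1 was at 0.739% ± 0.0228, below its share outside. The RUNX difference was close to 0 there, with 1.23% outside and 1.24% inside (exact sign-flip p = 0.75), and within 1000 bp of a TSS, with 1.11% and 1.21% (exact sign-flip p = 0.75).

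Many loci stood in rows. Joined where they were at most 1000 bp apart, the 4224 loci made 2752 stretches, of which 1830 had a single locus and 51 had 5 or more. Of 20780 autosomal protein-coding genes, 2308 (11.1%) had a locus nearest to their TSS and within 1000 bp, 273 had 3 or more such loci, and 1053 had one found in all 3 libraries.

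The longest row was at Kif24, which encodes a kinesin of the centriole and cilium. The 10 loci of this row, at chr4:41464603-41465143, comprised 11, 10 and 10 footprints in replicates 1, 2 and 4. The Kif24 TSS was the nearest coding TSS for 7 of these loci, with 8, 6 and 8 footprints, and not for the others. The only peak there, chr4:41464921-41465000, was 80 bp wide, had the same borders in each library and both lists, and lay between 152 and 73 bp upstream of the Kif24 TSS nearest to the middle of the row. Its heights of 6.67, 5.72 and 10.2 were at percentiles 95.2, 94.2 and 96.1 of their libraries, highest in replicate 4 and lowest in replicate 2 on a scale that is not stated. The listed FDR block ran from 582, 580 and 564 bp upstream of the TSS to 501, 486 and 515 bp downstream, with a highest -log10 FDR of 106, 73.0 and 124. Inside the peak there were 2, 1 and 1 footprints.

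**Figure D5:**
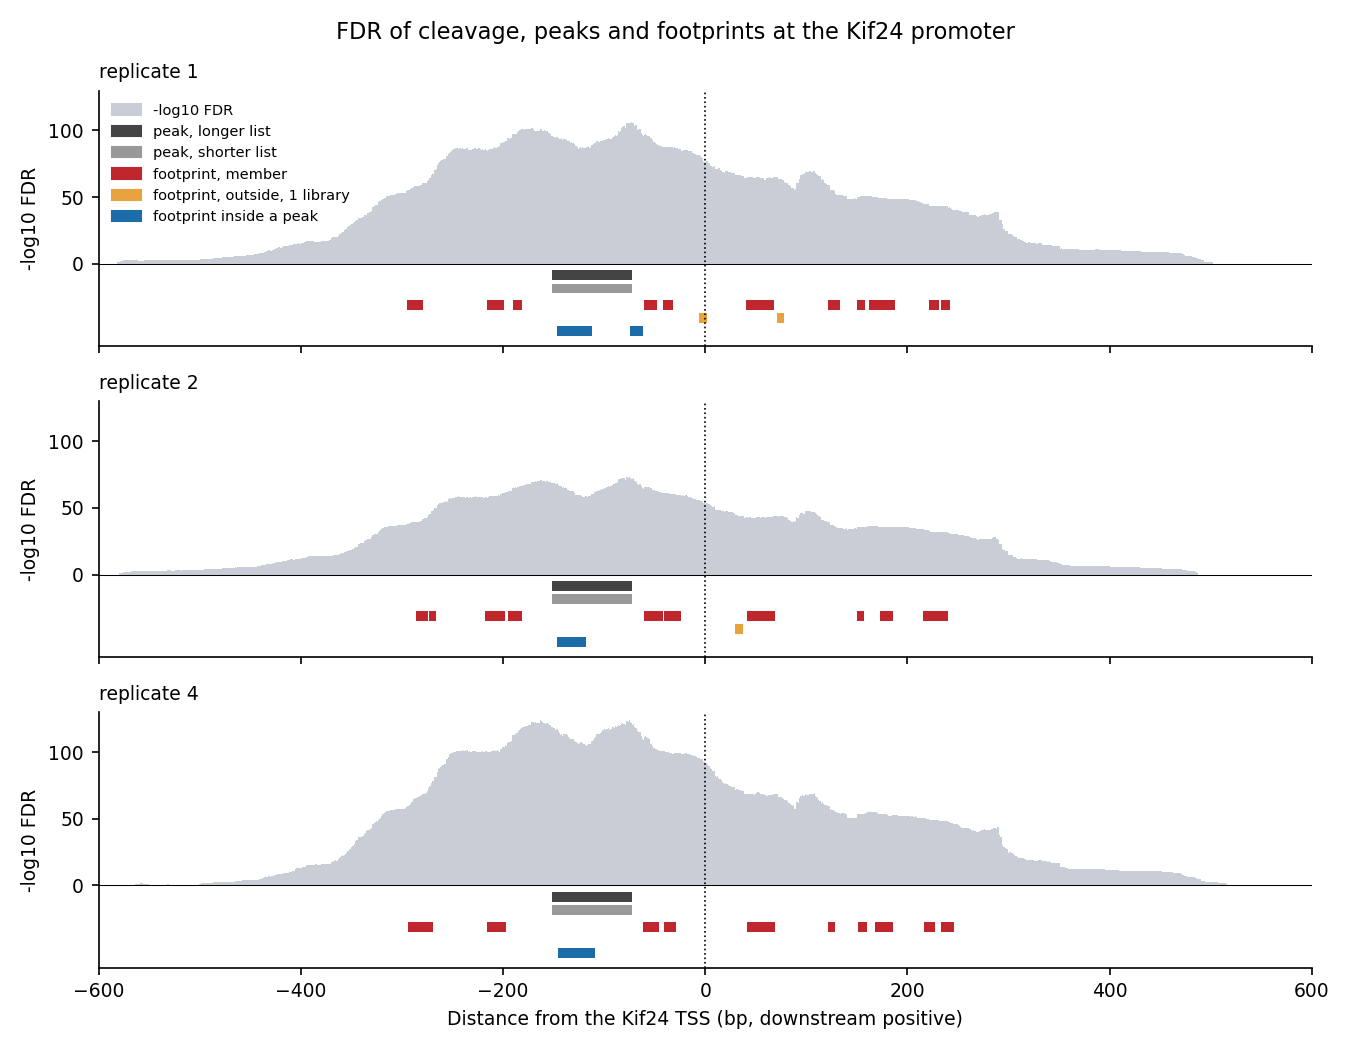
The Kif24 promoter in each library by distance from the TSS: the grey area is -log10 FDR, bars below it are the peaks of both lists, shared footprints outside peaks, outside footprints of 1 library and footprints inside a peak. The peak of 80 bp covers a small part of the block, and the shared footprints, 11, 10 and 10 of them, lie on both sides of it. For some of them the nearest coding TSS was not that of Kif24.

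The Kif24 locus printed above, which spans an NRF1 motif, lay in an intron with a gap of 234 bp to the peak. Its footprints were 26, 13 and 18 bp wide, and the lowest FDR there was 1.28e-51, 1.64e-36 and 1.08e-55. A further locus of that row, chr4:41464603-41464633, had the largest gap of the loci found in all 3 libraries, 287 bp, with an FDR of 3.91e-44, 1.32e-34 and 5.44e-51. At both loci the FDR was weakest in replicate 2.

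Rows of 9 loci were found at Cactin, which encodes a splicing-associated protein, and at Maml3, a coactivator of Notch signalling. At Cactin the footprints numbered 10, 9 and 10, and the peak among them, chr10:81320621-81320900, was at height percentiles 98.2, 97.9 and 98.8. At Maml3 they numbered 7, 9 and 7 around a peak of 100 bp at percentiles 87.6, 85.7 and 88.4, and the row lay 2839 bp downstream of the nearest coding TSS, inside the gene. Rows of 8 loci were at Eif5a, which encodes a translation factor, at Ppp1r10, a regulatory subunit of protein phosphatase 1, and at Brat1. The peak of 220 bp at Eif5a was among the tallest of each library, at percentiles 99.92, 99.92 and 99.97, and had 7, 6 and 7 outside footprints in its row. At Brat1 the footprints numbered 8, 8 and 6 beside a peak of 340 bp at percentiles 99.9, 99.8 and 99.9. By gene record the most loci, 20, were inside Gm20388, whose record runs over chr8:119910841-124345722.

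Jun and Jund, which encode AP-1 subunits, each had 6 loci within 1000 bp of the TSS. At Jun there were 6, 6 and 5 footprints, and 5 of the loci were found in all 3 libraries; at Jund there were 5, 4 and 6 footprints and 3 such loci. The Jun locus printed here, 494 bp upstream of the TSS and 269 bp from a peak, had footprints of 13, 9 and 7 bp with an FDR of 2.87e-42, 3.97e-39 and 2.68e-26, weakest in replicate 4. Among other regulators of myeloid cells, a list made after results were seen, Cebpa had 3 loci, Cebpb and Junb 2 each, and Klf2, Klf4, Fosl2 and Egr1 1 each. Loci of all 3 libraries were present at Cebpa, Fosl2 and Egr1 but not at Cebpb, Junb, Klf2 and Klf4. Replicate 2 had no shared outside footprint at Cebpb, Klf2 and Klf4. Spi1, Irf8, Nr4a1, Runx1 and Fos had none. Actb, which is not a myeloid regulator, had 2 loci, with its promoter peak at height percentile 99.8 in each library. Over all autosomal protein-coding genes 11.1% had a locus, and the list was not tested against that share. Promoter peaks of Spi1, at height percentiles 87.8, 85.5 and 84.7, and of Runx1, at 82.4, 78.4 and 83.6, were below those of Jun, at 99.5, 99.3 and 98.9. Nr4a1, with no locus, was at 98.1, 98.4 and 98.7 and Fos, also with none, at 94.5, 94.6 and 95.2. Cebpb was at 93.7, 91.8 and 93.8 and Klf4 at 92.0, 92.9 and 92.9. Whether peak height bears on the loci of these genes was not tested.

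The monocyte label was checked by promoter peaks. Of 10 monocyte markers, 8 (Csf1r, Cx3cr1, Itgam, Cd68, Spi1, Lyz2, Fcgr3 and Cd14) had a peak within 1000 bp of a TSS in all 3 libraries, Ly6c2 had one in 1 library and Ccr2 in none. No marker of T, B, natural killer, erythroid or liver cells had one in any library, and of 4 neutrophil markers 1 did, S100a8, which monocytes also express. None of the 10 monocyte markers had a shared footprint outside peaks within 1000 bp of its TSS, and neither had any marker of another cell type. Over all autosomal protein-coding genes, with or without a promoter peak, the share with such a locus was 11.1%. The share among genes with a promoter peak was not computed. The count of 0 of 10 thus has no matched background and is not read as a result about the markers. Gata1 and Hbb-b1 had no autosomal coding TSS in the annotation used.

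Loci printed for other motifs had footprints of different widths in the libraries. Distances from a TSS are those of the locus midpoint to the nearest coding TSS. At Ranbp3, which encodes a Ran-binding protein, the locus with the NRF1 motif lay 184 bp upstream of the TSS and 28 bp from a peak, and the lowest FDR was 2.19e-166, 1.67e-126 and 5.80e-227. Replicate 1 split that locus into footprints of 23 and 9 bp, while replicates 2 and 4 had single footprints of 19 and 34 bp. At Zfp473, a zinc finger gene, the locus with the CRE lay 151 bp upstream, in an intron of the annotated Vrk3 and Zfp473 genes, in footprints of 23, 15 and 10 bp with an FDR of 2.57e-31, 1.73e-20 and 8.97e-38. At Carm1, which encodes an arginine methyltransferase, the locus with the GC box lay 638 bp upstream and 234 bp from a peak, with an FDR of 4.43e-45, 3.24e-28 and 6.10e-77. Replicate 2 had the weakest FDR at each of these loci.

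The locus with the C/EBP motif at Dck, the gene of deoxycytidine kinase, lay 115 bp upstream of the TSS in footprints of 10, 11 and 12 bp, with an FDR of 1.05e-41, 2.42e-37 and 3.47e-61. It was 1 of 8 loci with the whole C/EBP motif inside the footprint, 6 of them found in all 3 libraries. The locus with the CTCF core in an intron of Wnt6, a Wnt ligand, lay 4174 bp downstream of the TSS in footprints of 26, 26 and 22 bp with a weaker FDR of 4.71e-19, 5.10e-10 and 5.05e-11. The locus with the YY1 motif lay in an intron of a gene that is not protein-coding, 16128 bp from the TSS of Kmt2e, in footprints of 13, 7 and 10 bp. The locus with the GC box and E-box near Lmna, the lamin A/C gene, lay 6696 bp upstream of its TSS in footprints of 21, 15 and 19 bp. By the same count of motifs wholly inside a locus, the GC box was in 503 loci, the CTCF core in 114, NRF1 in 99, AP-1 in 2 and YY1 in 3.

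The lowest FDR of all was at a locus in an intron of Zc3h7a, 9688 bp upstream of the Txndc11 TSS, printed under the latter name. It was at or below 1e-300, the floor used here, in replicates 1 and 4 and 9.69e-289 in replicate 2, and the footprints were 45, 35 and 35 bp wide. An untranslated region of Lars2 and an intergenic site, chr3:5860297-5860336, were also among the 10 loci of lowest FDR, with 1.51e-231, 4.72e-171 and 2.06e-186 at the latter. In an intron of Cdkn1a, which encodes the cell cycle inhibitor p21, the locus chr17:29095701-29095731 touched a peak and had an FDR of 1.24e-273 and 2.08e-263 in replicates 1 and 2 but 4.19e-39 in replicate 4. A second Cdkn1a locus, chr17:29095322-29095348, gave 3.05e-232, 7.85e-224 and 3.68e-35, so that replicate 4 stood apart at both. With 15 bp on each side, 39 of the 41 loci chosen for naming had 1 exact copy in the reference genome. A Lars2 locus, chr9:123461841-123461856, occurred 4 times, and a locus near Rpp38, chr2:3332987-3333028, 2 times. Near copies were not counted, and whether reads map to 1 place at these loci was not tested.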

How the data were processed

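The authors deposited, for each library and in mm10, footprints, a pair of peak lists and a table of the FDR of cleavage, all made from the filtered reads of that library alone, per the file headers and descriptions. The aligner and the callers of peaks and footprints were not given in the sources used here. The footprint file holds 1 constant p-value (0.01), which was not used. The FDR, a q-value, is deposited where it was under 0.05, and peak height is a deposited signal of unstated scale. From these, Python 3.11.15 with numpy 2.4.6 and pandas 2.3.3 computed overlaps of at least 1 bp, gaps (bases between a footprint and a peak) and the lowest FDR over a footprint, with a floor of 1e-300. Interval functions were tested on simulated data. Reference sequence was the GRCm38 assembly and genes GENCODE M21 (release 21). Classes were taken in the order promoter (1000 bp on either side of a protein-coding TSS), exon, intron, intergenic.

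Comparison footprints overlapped a peak of any library and a footprint of another library doing so too. Means were compared over libraries by exact sign-flip permutation tests, two-sided. The footprints, motifs, markers and tests were chosen with earlier results of these data known. Loci were named by rule: up to 10 of all libraries with the lowest median FDR, up to 10 farthest from a peak and up to 2 per motif; genes by numbers of loci. The regulator list, the splits by distance from a TSS and the comparison with footprints of the nearest peaks were added after results were seen. Sequences on chromosome 18 and in untranslated regions are not printed. Alternatives were another overlap, both other libraries, the shorter peak list, peaks extended by 150 bp, all footprints inside peaks, repeats left out and each library left out.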

Additional observations from a re-analysis of the deposited data

How the results depend on the processing

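Of 254 values recomputed under alternatives, 25 were labelled reversed, 16 moved and 213 the same. A difference labelled the same kept its sign but not always its size. For the number of footprints, the gap and the FDR the value of the outside footprints alone was labelled. The turns in FDR order given below are therefore not among the 25. The number of shared footprints per library outside peaks, 3551, was 1681 when both other libraries had to hold it, 5579 with the shorter peak list alone, 244 with peaks extended by 150 bp, 565 beyond 1000 bp of a TSS and 3055 to 3597 leaving out a library. The median gap of 29.7 bp became 29.0 with a reciprocal overlap of 50%, 33.3 with both other libraries, 49.3 with the shorter list, 177 with extended peaks, 30.7 without repeats, 31.3 within and 21.5 bp beyond 1000 bp of a TSS, and 32.5 to 34.0 leaving out a library. The GC difference of 3.42 points reversed with the shorter list (-1.29), beyond 1000 bp of a TSS (-0.931) and against the nearest peaks (-1.19), and was 2.07 to 3.02 leaving out a library. The median log10 FDR of -30.0 became -17.3 with the shorter list (inside peaks -18.3, the opposite order to that reported) and -16.9 beyond 1000 bp of a TSS (inside -7.96). Within 1000 bp of a TSS the order was also turned, with -32.2 against -35.6. The promoter difference reversed to -2.44 against the nearest peaks, and the intergenic difference to 5.61 beyond 1000 bp of a TSS and 0.999 against the nearest peaks. With the shorter list the promoter difference fell from 30.7 to 5.32 points, the intergenic difference went from -12.6 to -3.02 and ETS from -1.98 to -0.0217. GC within 1000 bp of a TSS differed by 0.119 points, soft-masked share without repeats by 0.00626 points and median width against all footprints inside peaks by -0.333 bp. The cause was not tested.

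Differences of smaller items also reversed. With the shorter list, C/EBP was 0.0274, the GC box -2.65, NRF1 -0.865 and windows with a CpG -2.61 points. Extended peaks gave 1.55 for the CTCF core and 0.128 for the E-box. NRF1 was -0.0256 with the reciprocal overlap and -0.0261 to 0.876 leaving out a library. Within 1000 bp of a TSS the GC box was -3.88, NRF1 -1.70 and windows with a CpG -2.83, and beyond it the CRE was 0.0913. Against the nearest peaks ETS was 0.134, C/EBP 0.0535, AP-1 0.0266, the GC box -6.65, IRF 0.171, NRF1 -3.06 and windows with a CpG -6.78. All differences were taken within a library.

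The main limits are the 3 libraries, which cannot give an exact p below 0.25, unknown read depth, and peaks, footprints and FDR made from the same reads.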
